A study of Mus musculus with 6 samples.

Results

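The phagocyte NADPH oxidase and its charge-balancing proton channel were followed here as 6 genes: Cybb, Cyba, Ncf1, Ncf4, Rac2 and Hvcn1. They were picked by name from the 20097 mouse genes listed in the deposited files, with the difference between the groups already known, and all 6 were found and passed the filter on low values that kept 15410 genes for testing. RNA came from c-Kit+ bone marrow cells, the marrow fraction that carries the KIT receptor, in which immature blood cells are concentrated. The groups were 3 libraries labelled WT and 3 labelled Runx1 KO, a knockout of the gene for the transcription factor RUNX1. Strain, age, sex, the allele, the means of disrupting Runx1 and whether animals were pooled are not given in the sources used here. Nothing in the labels says that the libraries of a group came from separate animals, so p values measure the spread between these libraries, which may be technical.

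The oxidase makes superoxide by carrying electrons from NADPH in the cytosol across a membrane to oxygen. CYBB is the catalytic, heme-bearing subunit and CYBA its membrane partner, and cytosolic proteins, NCF1 and NCF4 among them, join them together with an active RAC GTPase when a phagocyte is stimulated. Each electron that crosses leaves a proton behind, and HVCN1 is the voltage-gated channel that lets these protons follow. The complex is best known in neutrophils and macrophages, where its inherited loss causes chronic granulomatous disease, and it builds up as granulocyte progenitors mature. HVCN1 is also found in B cells.

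The libraries held from 23297526 to 26793380 recovered reads, and the unit below, the normalised read count, is a gene's reads divided by a size factor for the library. Runx1, the targeted gene, was not lower where the label reads Runx1 KO: its normalised read counts were 3031, 2799 and 3497 under the label WT and 6648, 6720 and 5830 under the label Runx1 KO. Its level thus goes against the label, and a count per gene cannot show whether a stretch of the transcript is missing. The groups are called by their labels for that reason. Kit, which defines the sort, had 8301 ± 280 normalised reads under the label WT and 12649 ± 1093 under the label Runx1 KO (SD, n = 3). Replicate 1 stood apart in both groups: WT replicate 1 held 36096 normalised reads over 13 B-lymphoid markers against 8367 and 13616 in its group, and Runx1 KO replicate 1 held 101409 over 12 late neutrophil markers against 38195 and 33770. Runx1 KO replicate 1 was also apart from its group in the sums of B-lymphoid markers (3737 against 1331 and 1389) and of T-lymphoid markers (1158 against 329 and 365). Values without both replicates 1 are given below where they bear on a result.

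Promoter sequence was on hand for 3 of the 6 genes, and is shown because Cybb had the largest difference of the 6 and the others had smaller ones in the same direction. Each run is the 250 bases before the RefSeq transcript start on GRCm38.p6, the build family that the submitters' processing notes name, written 5′ to 3′ on the strand of the gene. Capitals mark matches, on either strand, to the letters of 4 known motifs that are spelled out after the sequences.
Cybb, chrX:9469325-9469574, minus strand: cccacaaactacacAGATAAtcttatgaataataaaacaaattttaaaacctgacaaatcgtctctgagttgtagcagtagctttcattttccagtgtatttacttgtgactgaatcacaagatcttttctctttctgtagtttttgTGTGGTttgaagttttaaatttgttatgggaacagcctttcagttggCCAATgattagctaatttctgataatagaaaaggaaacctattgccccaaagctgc
Cyba, chr8:122432941-122433190, minus strand: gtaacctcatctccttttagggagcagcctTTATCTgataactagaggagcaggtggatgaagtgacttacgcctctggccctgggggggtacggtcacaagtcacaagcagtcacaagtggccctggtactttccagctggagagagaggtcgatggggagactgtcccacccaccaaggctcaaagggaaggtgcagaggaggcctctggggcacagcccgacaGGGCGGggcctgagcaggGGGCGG
Ncf1, chr5:134229626-134229875, minus strand: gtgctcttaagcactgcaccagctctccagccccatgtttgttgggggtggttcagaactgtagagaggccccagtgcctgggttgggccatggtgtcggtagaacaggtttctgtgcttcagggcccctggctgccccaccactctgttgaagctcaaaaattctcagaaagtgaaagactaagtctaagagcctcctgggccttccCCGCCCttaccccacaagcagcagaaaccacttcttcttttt

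The 3 windows had little in common in these letters. The letters TGTGGT, the core bound by RUNX factors, stood in the Cybb window alone, from base -103 to base -98 before the start, and 14.0% of the 32851 windows of the same length in the RefSeq table hold it on either strand. AGATAA, bound by GATA factors, stood in the Cybb window from -236 to -231 and, on the opposite strand, in the Cyba window from -220 to -215, against 9.99% of all windows. CCAAT, the box of that name, stood in the Cybb window from -56 to -52, against 33.8% of all windows. GGGCGG, the GC box, stood in the Cyba window at -24 to -19 and at -6 to -1 and, on the opposite strand, in the Ncf1 window at -42 to -37, against 32.7% of all windows. GAGGAA, bound by PU.1, was searched too and was in none of the 3 windows and in 23.3% of all windows. The Cybb window was poor in G and C (34.0%), the Cyba window rich (60.0%) and the Ncf1 window between them (54.4%), with a median of 52.4% over all windows. In GENCODE M21 the Ncf1 window overlapped no gene, the Cyba window lay within Gm20388 and the Cybb window within the extent of Cybb itself, and none of them overlapped an exon. These matches are letters only and were not tied to binding.

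All 6 genes were lower in the libraries labelled Runx1 KO, from Rac2 at 63.2% of the mean under the label WT to Cybb at 25.9%. Cybb (ENSMUSG00000015340; chromosome X, 9435252 to 9487771, minus strand), the catalytic subunit, had normalised read counts of 24095, 19321 and 17346 in WT replicates 1 to 3 and of 7791, 4360 and 3616 in Runx1 KO replicates 1 to 3. The lowest library labelled WT thus held more than 2 times the highest labelled Runx1 KO, and within the latter group replicate 1 stood above replicates 2 and 3. The log2 change was -2.01 (SE 0.28), and -2.20 over replicates 2 and 3 alone. Cyba (ENSMUSG00000006519; chromosome 8, 122424776 to 122432930, minus strand), which holds CYBB in the membrane, had 5021, 5116 and 4525 normalised reads against 3197, 2539 and 2475. Its groups lay closer together, with a log2 change of -0.84 (SE 0.11).

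**Figure D1:**
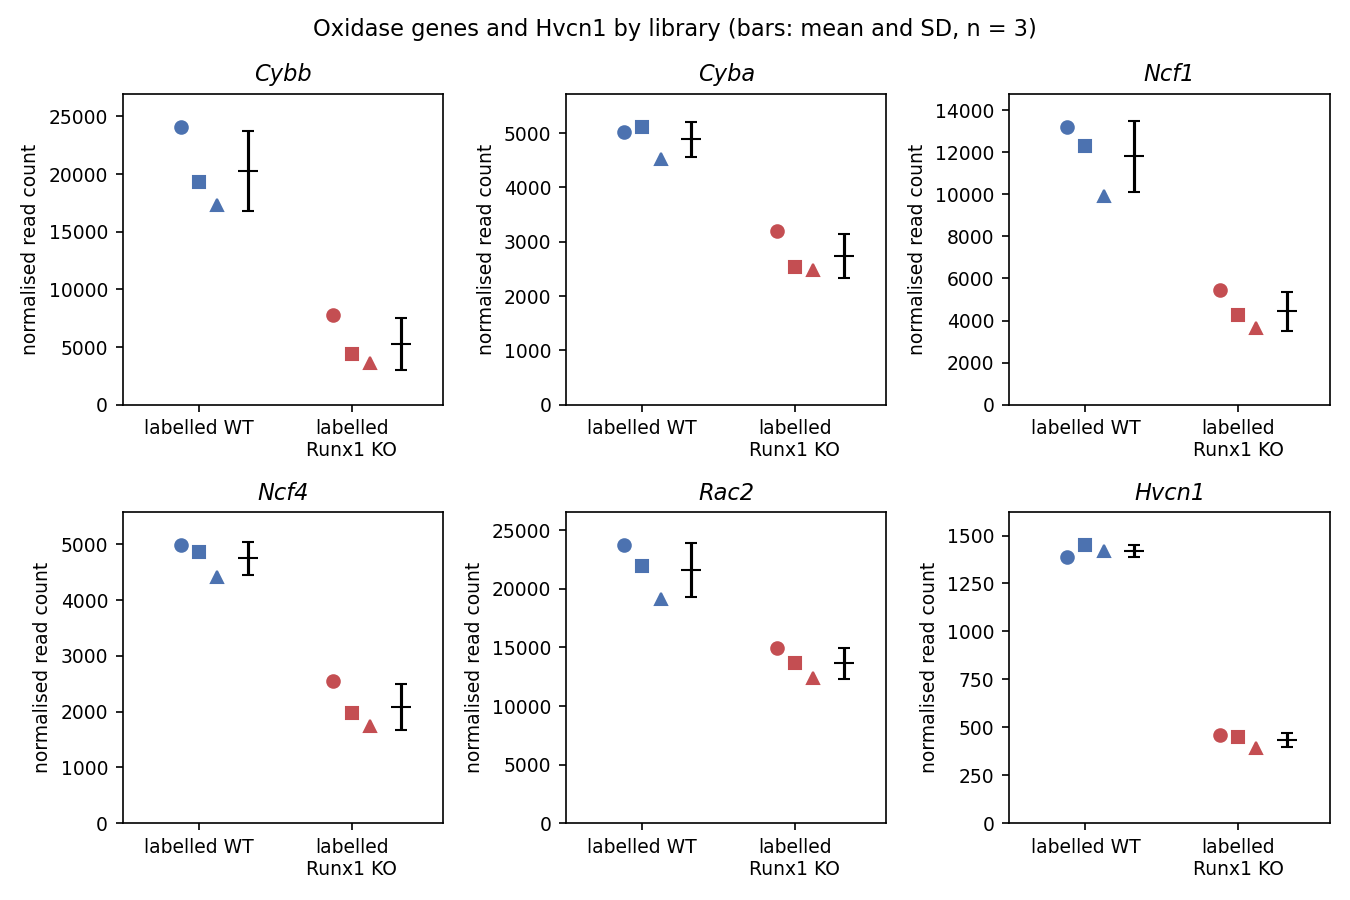
Normalised read count (vertical axes, starting at 0) of each of the 6 genes in the libraries labelled WT (blue) and Runx1 KO (red); circles, squares and triangles are replicates 1, 2 and 3, and black bars give the mean and SD (n = 3). The groups do not overlap in any panel, and the bars of Hvcn1 are the narrowest for its level under the label WT (1419 ± 30.5).

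The cytosolic subunits were lower as well. Ncf1 (ENSMUSG00000015950; chromosome 5, 134220053 to 134229625, minus strand), the organiser that bridges the cytosolic and membrane parts, had 13210, 12308 and 9944 normalised reads under the label WT and 5460, 4260 and 3633 under the label Runx1 KO. Its log2 change was -1.42 (SE 0.16), and its mean under the label Runx1 KO was 37.7% of that under the label WT. Ncf4 (ENSMUSG00000071715; chromosome 15, 78244801 to 78262580, plus strand), the subunit that binds a membrane lipid of phagosomes, had 4980, 4854 and 4415 normalised reads against 2540, 1968 and 1749. Its log2 change was -1.20 (SE 0.13), so that 43.9% of the level remained. In both genes every library labelled WT was above every library labelled Runx1 KO.

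Rac2 and Hvcn1 marked opposite ends of abundance. Rac2 (ENSMUSG00000033220; chromosome 15, 78559167 to 78572783, minus strand), the RAC GTPase of blood cells that switches the assembled oxidase on, had 23720, 21958 and 19149 normalised reads under the label WT and 14966, 13644 and 12354 under the label Runx1 KO. The change, -0.66 on the log2 scale (SE 0.10), was the smallest of the 6. Hvcn1 (ENSMUSG00000064267; chromosome 5, 122206804 to 122242297, plus strand) had 1388, 1449 and 1419 normalised reads against 460, 449 and 392. The libraries of a group lay close together, with a coefficient of variation of 2.15% under the label WT and 8.46% under the label Runx1 KO, where Cybb had 17.1% and 42.4%. The log2 change of Hvcn1 was -1.71 (SE 0.08), and -1.77 over replicates 2 and 3 alone.

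The groups did not overlap in 6 of the 6 genes, and neither did they in 43.3% of all tested genes, of which 21.9% were lower and 21.4% higher under the label Runx1 KO. In the limma fit 6 of 6 had an adjusted p under 0.05 and were lower, as did 11.3% of all genes tested. For 4 of the 6 (Cybb, Ncf1, Ncf4 and Hvcn1) the change was also -1 or lower, as for 5.02% of all genes. Because the genes were chosen with these values known, nothing is read from these counts, and no p value is given for them. Their median log2 change was -1.31, and that of all tested genes was -0.0042. Scaling by library totals, which raises the share of higher genes among all calls from 48.4% to 63.5%, left the log2 changes of the 6 genes between -0.58 for Rac2 and -1.93 for Cybb. In bulk RNA, fewer cells of a type that expresses these genes and less RNA per cell cannot be told apart.

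Libraries of 1 group varied together over the 6 genes. Runx1 KO replicate 1 was the highest of its group in 6 of 6 genes and Runx1 KO replicate 3 the lowest in 6 of 6. Among the libraries labelled WT, replicate 1 was the highest in 4 genes and replicate 3 the lowest in 5, with Hvcn1 the exception, lowest in replicate 1. Over the 6 libraries, which share the split into 2 groups, Pearson's r of the log2 values between pairs of the 6 genes ran from 0.952 (Rac2 with Hvcn1) to 0.997 (Cyba with Ncf4). All 5 pairs with Hvcn1 had an r of at most 0.977.

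Levels of different genes were compared per kilobase of annotated exon, with all exons of a gene in GENCODE M21 joined. The order between genes depends on these lengths, and which transcripts were made was not tested. Under the label WT the order was Rac2 (6964 ± 743 normalised reads per kilobase, SD, n = 3), Cyba (4704 ± 306), Cybb (3487 ± 597), Ncf1 (3227 ± 460), Ncf4 (2351 ± 147) and Hvcn1 (398 ± 8.57). Of these neighbours, Cybb and Ncf1 overlapped between libraries and the others did not. Under the label Runx1 KO the order was Rac2 (4400 ± 421), Cyba (2634 ± 384), Ncf1 (1215 ± 254), Ncf4 (1033 ± 202), Cybb (905 ± 383) and Hvcn1 (122 ± 10.3). Cybb had moved from the third place to the fifth, although Ncf1 overlapped Ncf4 and Ncf4 overlapped Cybb there. The ratio of Cybb to Cyba per kilobase, the partners of the membrane core, was 0.74 ± 0.10 under the label WT and 0.33 ± 0.09 under the label Runx1 KO. Between Hvcn1 and Cybb the mean ratio differed less, at 0.12 ± 0.02 under the label WT and 0.15 ± 0.04 under the label Runx1 KO. By library, the ratio of Hvcn1 to Cybb per kilobase was 0.0939, 0.122 and 0.133 under the label WT and 0.0963, 0.168 and 0.177 under the label Runx1 KO. The groups overlapped through Runx1 KO replicate 1 alone, and over replicates 2 and 3 the ratio was higher under the label Runx1 KO without overlap.

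**Figure D2:**
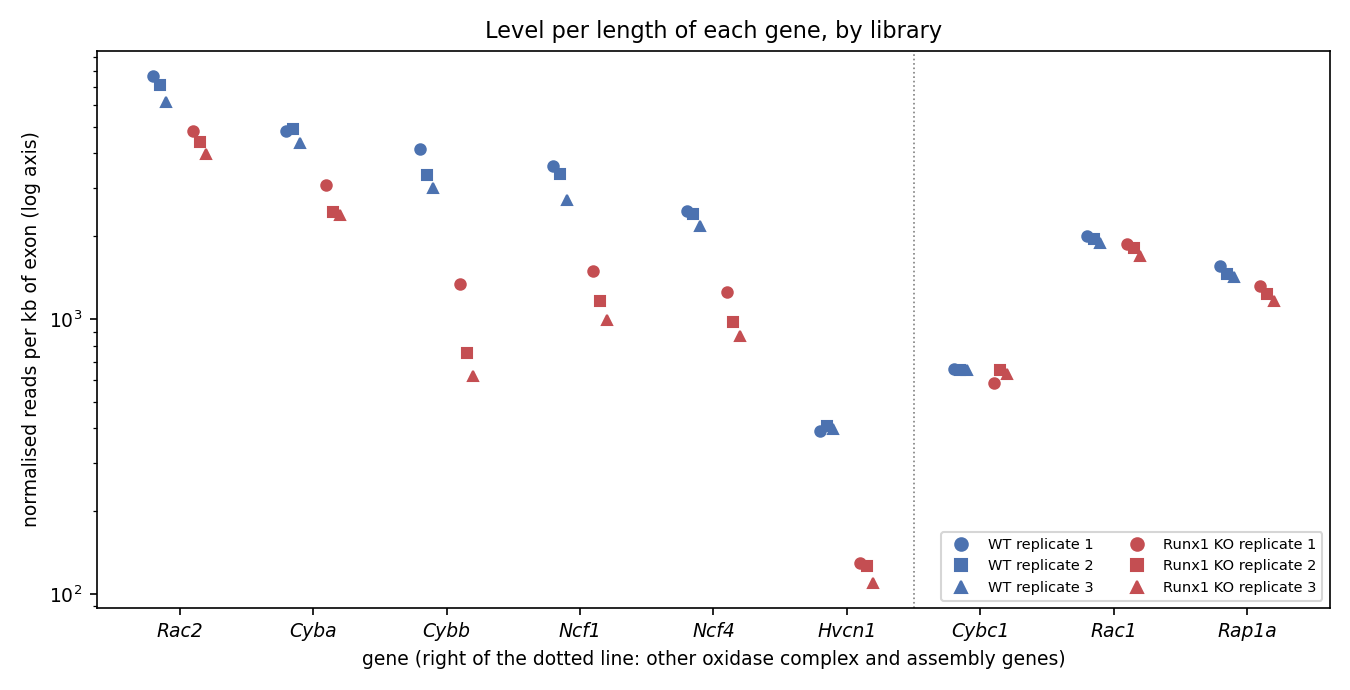
Normalised reads per kilobase of exon (vertical log axis) of each gene in each library, with the 6 genes in the order of their WT mean and 3 other oxidase genes to the right of the dotted line; blue is the label WT, red the label Runx1 KO, and symbols are replicates. Cybb falls below Ncf1 and Ncf4 in mean under the label Runx1 KO (905 against 1215 and 1033), while Cybc1 and Rac1 stay near their WT level.

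A further 3 genes of the complex and its assembly, which did not enter the choice, had log2 changes from -0.26 to -0.07. Cybc1, the chaperone without which the membrane core is not stably made, had 2759, 2746 and 2747 normalised reads against 2465, 2741 and 2660. Its log2 change was -0.07 (SE 0.06; limma adjusted p 0.426), and 0.012 when libraries were scaled by their totals. Rac1, the widely expressed relative of Rac2, had 8984, 8809 and 8515 normalised reads against 8446, 8129 and 7624, a log2 change of -0.12 (SE 0.06; limma adjusted p 0.18). The ratio of Rac2 to Rac1 per kilobase was 3.57 ± 0.29 under the label WT and 2.45 ± 0.11 under the label Runx1 KO. How reads that match both of these related genes were counted is not stated in the sources used here. Rap1a, a small GTPase found with the membrane core, had 4047, 3812 and 3714 normalised reads against 3445, 3213 and 3034 and fell by 0.26 on the log2 scale (SE 0.07; limma adjusted p 0.0365). It was the 1 gene of these 3 past the threshold; the call was lost with scaling by library totals and whenever any library but Runx1 KO replicate 1 was left out, with adjusted p values up to 0.125. Over replicates 2 and 3 alone it passed (limma adjusted p 0.0288).

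Other NADPH oxidases were scarce in these cells. Of 9 genes for the other catalytic subunits and their helpers, Nox1, Noxa1 and Noxo1 were listed, and Noxo1 alone was tested, at 6.94 to 19.9 normalised reads over the libraries and a log2 change of 0.03 (SE 0.44; limma adjusted p 0.963). Its sign turned over replicates 2 and 3 alone and without WT replicate 1, Runx1 KO replicate 1 or Runx1 KO replicate 3. The summed level of the 3 genes was 16.8 to 26.9 normalised reads under the label WT and 13.9 to 24.1 under the label Runx1 KO.

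Genes of the pathways around NADPH, which the oxidase burns, were lower in part, and not all of them make NADPH themselves. Of 12 genes of the pentose phosphate pathway and other NADPH sources, all tested, 7 fell, 0 rose and 5 did not pass, with a median log2 change of -0.36. G6pdx and Pgd, dehydrogenases that make NADPH in that pathway, were among the 7. H6pd, also a dehydrogenase of the list and named after its value was seen, did not pass (log2 change -0.17, SE 0.06, limma adjusted p 0.0853). Neither did Idh1, likewise a dehydrogenase named after its value was seen (0.08, SE 0.06, limma adjusted p 0.315). G6pdx, the entry enzyme, had 10869, 10028 and 8747 normalised reads under the label WT and 6021, 5270 and 4920 under the label Runx1 KO, a log2 change of -0.87 (SE 0.10; limma adjusted p 0.00327). Pgd, the next oxidative enzyme, had 14332, 15959 and 12691 against 7973, 7971 and 7235, a log2 change of -0.89 (SE 0.09; limma adjusted p 0.00234). For both genes every library labelled WT was above every library labelled Runx1 KO. Nadk, the kinase that makes NADP from NAD, fell by 0.67 (SE 0.10; limma adjusted p 0.00577) and Taldo1, of the non-oxidative branch, by 0.47 (SE 0.08; limma adjusted p 0.00818). These 4 genes kept an adjusted p of at most 0.0426 with any library left out. Without Runx1 KO replicate 2, or without Runx1 KO replicate 3, 4 of the 12 passed.

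**Figure D3:**
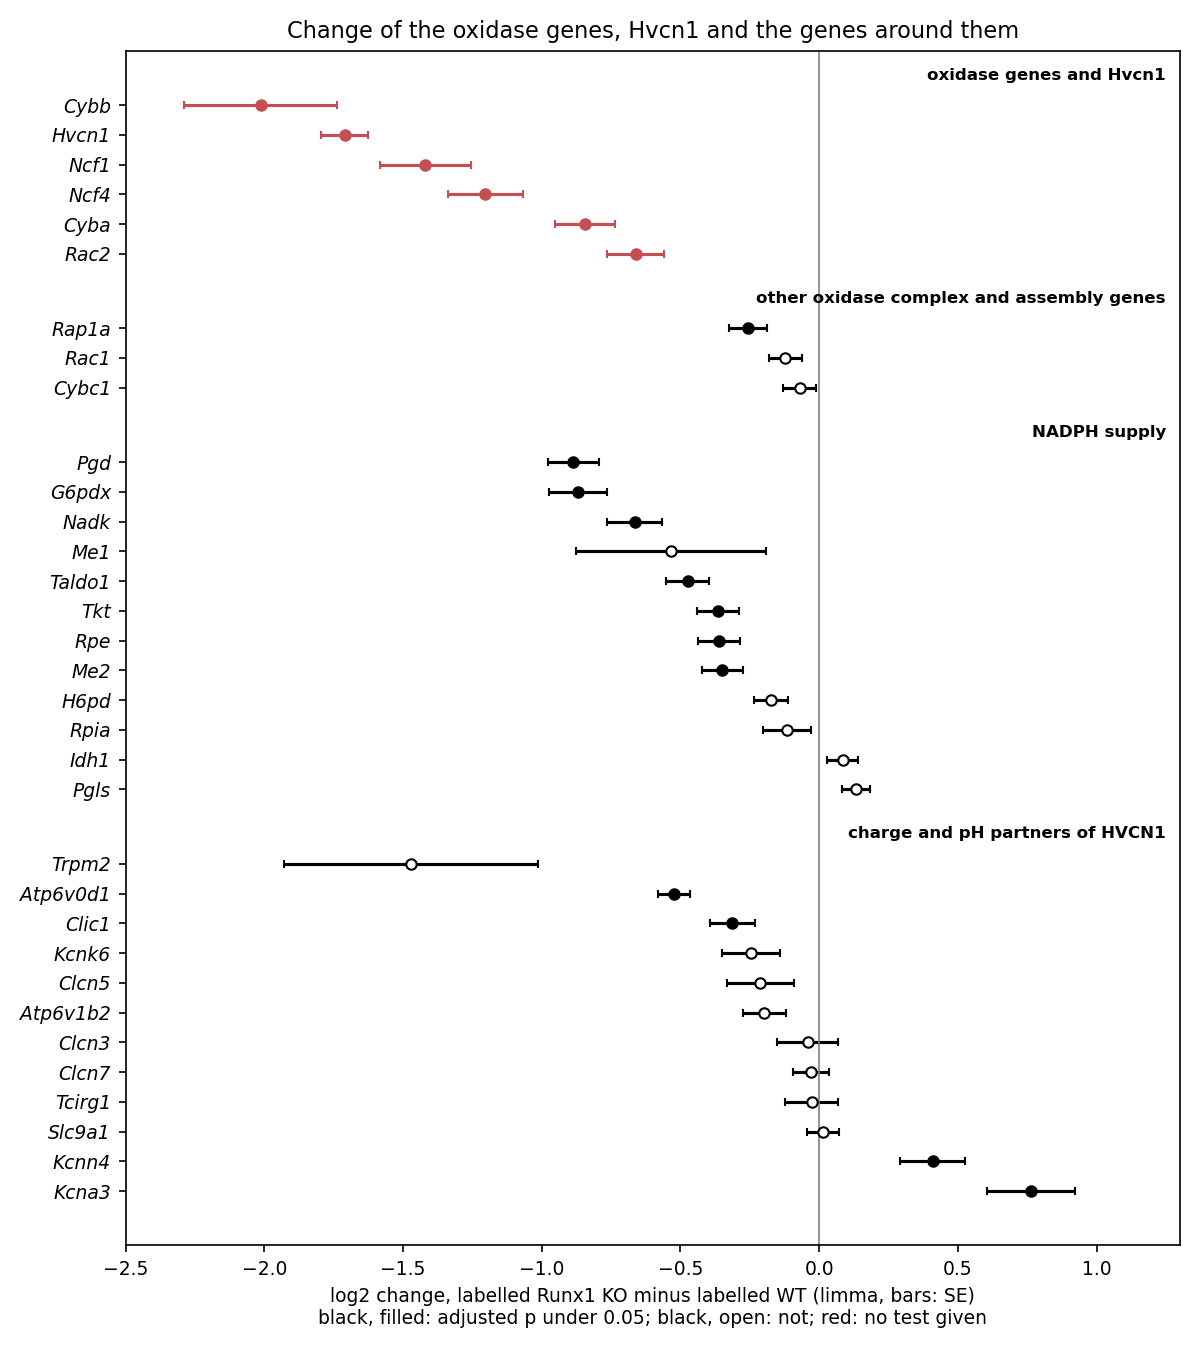
Log2 change with SE (horizontal axis, limma, label Runx1 KO minus label WT) of the 6 genes (red, no test given) and of 3 gene lists around them (black; filled circles have an adjusted p under 0.05, open circles do not). Cybb lies farthest left at -2.01, Rap1a is the filled one of the 3 other oxidase genes, 7 of 12 NADPH supply genes are filled and to the left of 0, and the 12 charge and pH partners of HVCN1 hold 2 filled on either side.

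Receptors, kinases and other genes tied to switching on the oxidase included the largest changes among these lists. Of 20 tested, 11 fell, 0 rose and 9 did not pass, with a median log2 change of -0.99. The 11 include S100a8 (-1.47, SE 0.23, limma adjusted p 0.00699) and S100a9 (-1.58, SE 0.28, limma adjusted p 0.0102). Both were named after their values were seen, are neither receptors nor kinases, and are counted among the late neutrophil markers too. C5ar1, the receptor for complement C5a, had 2465, 788 and 789 normalised reads under the label WT and 438, 163 and 111 under the label Runx1 KO. WT replicate 1 was far above the rest, and the log2 change was -2.52 (SE 0.61; limma adjusted p 0.0277). Fpr2, a formyl peptide receptor, was likewise highest in WT replicate 1, with 2255, 796 and 646 against 373, 189 and 112, and changed by -2.39 (SE 0.57; limma adjusted p 0.0265). C5ar1 lost its call without WT replicate 1, WT replicate 2, Runx1 KO replicate 2 or Runx1 KO replicate 3 (adjusted p up to 0.0962), and Fpr2 without the last 3 of these (up to 0.0877). Over replicates 2 and 3 alone the log2 change was -2.54 for C5ar1 (limma adjusted p 0.00101) and -2.29 for Fpr2 (limma adjusted p 0.00314). Itgam, the integrin chain of the complement receptor on phagocytes, fell by 1.95 (SE 0.31; limma adjusted p 0.00769) and Fgr, a SRC-family kinase, by 1.92 (SE 0.36; limma adjusted p 0.012), and both kept their call with any library left out.

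Partners of HVCN1 in charge and pH balance included genes called in both directions. Of 12 channels, exchangers and proton pump subunits, 2 fell, 2 rose and 8 did not pass, with a median log2 change of -0.12. Over all genes tested, 11.3% were called lower and 10.6% higher, and nothing particular to the list is read from its counts. Atp6v0d1, a subunit of the proton pump of vesicles, fell by 0.52 (SE 0.06; limma adjusted p 0.00262), and Clic1, a chloride intracellular channel protein, by 0.31 (SE 0.08; limma adjusted p 0.0355). The potassium channel genes Kcna3 and Kcnn4 rose, Kcna3 by 0.76 (SE 0.16; limma adjusted p 0.0174) and Kcnn4 by 0.41 (SE 0.12; limma adjusted p 0.0456), while Kcnk6, also a potassium channel gene of the list and named after its value was seen, had a log2 change of -0.25 (limma adjusted p 0.133). Kcna3 lost its call without Runx1 KO replicate 2 (adjusted p 0.0747), and Clic1 and Kcnn4 without any library but Runx1 KO replicate 1; scaling by library totals also ended the call of Clic1. The count of 4 became 1 without Runx1 KO replicate 2 and 2 without Runx1 KO replicate 3 or any 1 of the libraries labelled WT.

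Genes of superoxide and peroxide handling, enzymes and regulators, moved both ways. Of 24 tested, 6 fell, 4 rose and 14 did not pass, with a median log2 change of -0.08. Prdx4, a peroxidase of the secretory pathway, had 973, 868 and 827 normalised reads under the label WT and 2285, 1933 and 2049 under the label Runx1 KO, and rose by 1.23 (SE 0.09; limma adjusted p 0.000989). Gpx3, a secreted glutathione peroxidase, rose by 0.84 (SE 0.17, limma adjusted p 0.0147). Also among the 4 was Keap1, a regulator named after its value was seen (0.36, SE 0.10, limma adjusted p 0.0449). Its call was lost without the filter on low values and whenever any library but WT replicate 2 was left out. Epx, the eosinophil peroxidase, fell by 1.34 (SE 0.27; limma adjusted p 0.0158), and without Runx1 KO replicate 2 its change was -1.16 and its call was lost (adjusted p 0.0596). Hmox1, the stress-inducible heme oxygenase, had 1923, 3810 and 3525 normalised reads against 1201, 1055 and 1962, so that its groups overlapped, and changed by -1.12 (SE 0.31; limma adjusted p 0.0439); the call was lost with scaling by library totals and without WT replicate 2, WT replicate 3, Runx1 KO replicate 1 or Runx1 KO replicate 2. Mpo, which turns the peroxide made from superoxide into hypochlorous acid, had 72943, 81448 and 70662 against 68650, 69534 and 66191, a log2 change of -0.14 (SE 0.08; limma adjusted p 0.233). Without Runx1 KO replicate 2, 4 of the 24 passed, and without WT replicate 3, 6.

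Transcription factors with known roles at oxidase genes were mixed too. Of 12 tested, 3 rose, 2 fell and 7 did not pass, Runx1 being the first of those that rose (log2 change 1.04, SE 0.10; limma adjusted p 0.00163). Cebpe, a factor of granulocyte maturation, had 2595, 3598 and 2757 normalised reads against 1633, 1666 and 1544 and fell by 0.87 (SE 0.12, limma adjusted p 0.00488). Spi1, the gene for PU.1 and named after its value was seen, was the other that fell (-0.36, SE 0.10, limma adjusted p 0.0403). Its call was lost in edgeR, with scaling by library totals and whenever any library but Runx1 KO replicate 1 was left out. Over replicates 2 and 3 alone it passed (-0.45, limma adjusted p 0.00514). Meis1, a factor of stem cells, rose by 1.01 (SE 0.23; limma adjusted p 0.0221) and Irf1, a factor of the interferon response, by 0.60 (SE 0.15; limma adjusted p 0.0342). Meis1 lost its call without WT replicate 1, WT replicate 2 or Runx1 KO replicate 2 (adjusted p up to 0.0852), Irf1 without WT replicate 2, WT replicate 3, Runx1 KO replicate 1 or Runx1 KO replicate 2 (up to 0.12), and neither passed over replicates 2 and 3 alone. Without WT replicate 2, or without Runx1 KO replicate 2, 2 of the 12 passed.

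Ncf4 and Rac2 are neighbours, and so their surroundings can be set beside them. They lie on chromosome 15 with 297 kilobases between them, in which 9 listed genes sit. Of the 7 of these that were tested, 0 fell and 2 rose. The 2 were Mpst, at 1194, 1257 and 1160 against 1519, 1431 and 1573 normalised reads (log2 change 0.32, SE 0.07; limma adjusted p 0.0173), and Kctd17, at 432, 477 and 557 against 828, 766 and 687 (log2 change 0.64, SE 0.12; limma adjusted p 0.0126). Csf2rb, the shared chain of the GM-CSF, IL-3 and IL-5 receptors and the most abundant of the 7, changed by -0.06 (SE 0.10; limma adjusted p 0.681; 0.02 when libraries were scaled by their totals), and its near copy Csf2rb2 by 0.29 (SE 0.15; limma adjusted p 0.208). Il2rb, a chain of the receptors for the interleukins IL-2 and IL-15, had the largest estimate of the 7, -1.60 (SE 0.73; limma adjusted p 0.155), at 691, 609 and 803 normalised reads against 847, 145 and 97.5. Its groups overlapped, with Runx1 KO replicate 1 the highest of the 6 libraries. Without that library the log2 change of Il2rb was -2.54 and passed (limma adjusted p 0.00156), as it did over replicates 2 and 3 alone (-2.55, limma adjusted p 0.00166). These genes were named after their values were seen.

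An overlapping gene could alter the counts of 2 of the 6, in a direction that depends on how shared reads were treated. In GENCODE M21 Ncf1 shares exon bases with Gtf2ird2 and Hvcn1 with Tctn1, each on the opposite strand, and although the library kit keeps the strand, whether the counting used it is not stated in the sources used here. Gtf2ird2 had 620 ± 78.2 normalised reads under the label WT and 705 ± 41.2 under the label Runx1 KO (log2 change 0.19, SE 0.11; limma adjusted p 0.242). Tctn1 had 336 ± 37.1 and 356 ± 31.6 (log2 change 0.08, SE 0.12; limma adjusted p 0.654). Neither passed the test, and the sign of Tctn1 turned without WT replicate 2 (-0.0037). The part of shared reads in the counts of Ncf1 and Hvcn1 was not tested.

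The genes whose level followed the 6 most closely were found by Pearson correlation over the 6 libraries with the mean of their standardised log2 values, among the tested genes with a mean of at least 100 normalised reads. They were Clec5a, Znhit1, Megf9, Gm5637, Sema4a and Gsn, with r from 0.997 to 0.9996. All of them share the split of the libraries into 2 groups. Clec5a, a receptor of myeloid cells, had 4345, 3985 and 3246 normalised reads under the label WT and 1526, 1098 and 897 under the label Runx1 KO, and was also the gene most like Ncf1. Gsn, which encodes the actin-severing protein gelsolin, had the largest change of these, -2.61 on the log2 scale (SE 0.27), and Znhit1, which was also most like Ncf4, the smallest, -0.44 (SE 0.07). The gene most like Cybb was Cdk2ap2, that most like Cyba Id2, that most like Rac2 Rhoa, and that most like Hvcn1 Wdfy1, which had 1353, 1374 and 1308 normalised reads against 586, 558 and 519.

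Markers of the cell types that could carry the oxidase differed in how far they moved beside it. The 6 genes summed to 56797 to 72413 normalised reads under the label WT and 24220 to 34414 under the label Runx1 KO. Early neutrophil markers, led by Mpo, summed to 167545 to 198397 and 144475 to 149881; of 8, 5 fell, 0 rose and 3 did not pass (median log2 change -0.38), and the most changed was Fcnb, a ficolin of granules (-2.05, SE 0.16; limma adjusted p 0.00102). Late neutrophil markers, led by Ngp, summed to 190642 to 309371 and 33770 to 101409. Of these 12, 8 fell, 0 rose and 4 did not pass (median -2.00), with Ly6g changing most (-3.13, SE 0.59; limma adjusted p 0.0126, and 0.053 without Runx1 KO replicate 2). The 4 that did not pass were Mmp8, Mmp9, Retnlg and Cxcr2, singled out after their values were seen, each with its highest level in WT replicate 1. Over replicates 2 and 3 alone, 11 of the 12 passed. The late neutrophil sums put Runx1 KO replicate 1 above replicates 2 and 3, as the 6 genes did. So did the monocyte, eosinophil, dendritic, B-lymphoid, T-lymphoid and megakaryocyte sums, and the order is therefore not particular to late neutrophil markers. The early neutrophil, progenitor, mast cell and erythroid sums did not. Without Runx1 KO replicate 2, or without Runx1 KO replicate 3, 3 of the 8 early neutrophil markers passed, and without Runx1 KO replicate 2, 5 of the 12 late ones. The part of these cells in the levels of the oxidase genes was not tested.

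**Figure D4:**
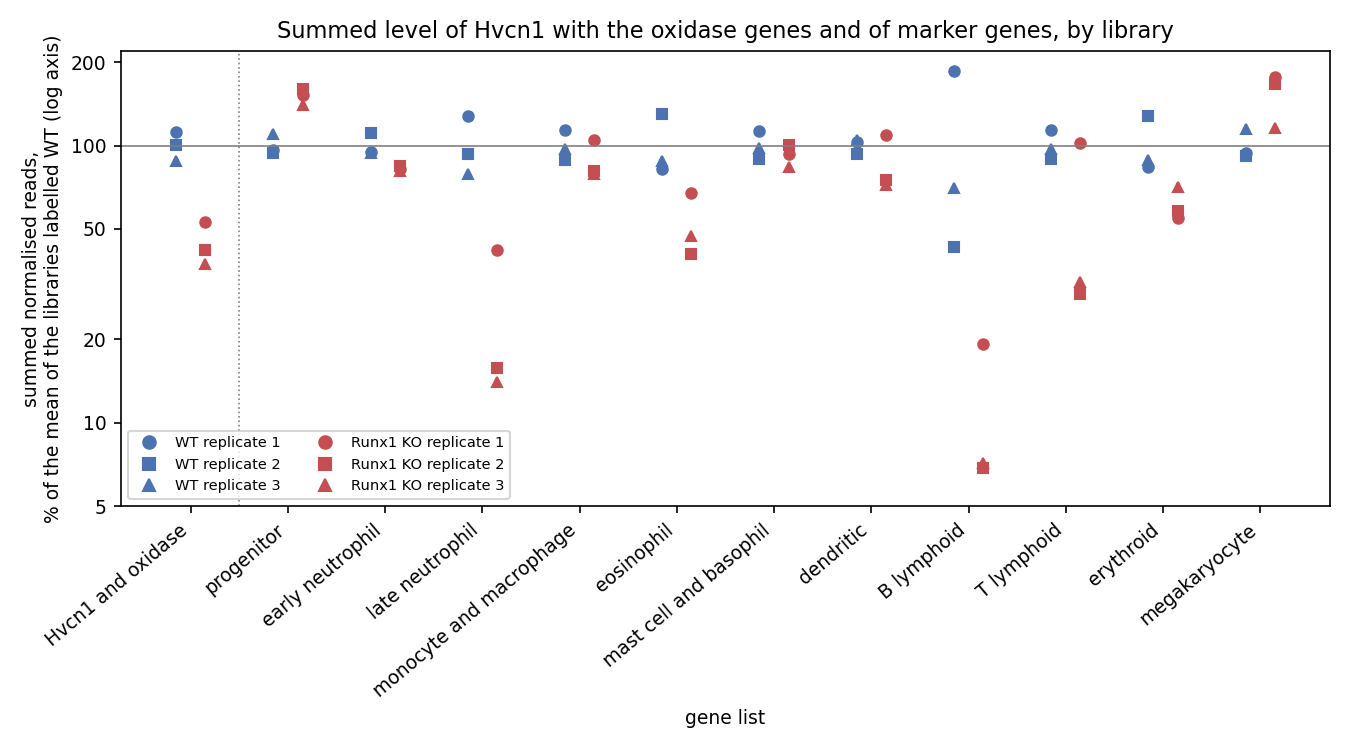
Summed normalised reads of the 6 genes (left of the dotted line) and of 11 marker lists in each library, as a percentage of the mean of the libraries labelled WT (vertical log axis); blue is the label WT, red the label Runx1 KO, and symbols are replicates. The late neutrophil and B-lymphoid sums fall farther under the label Runx1 KO than the sum of the 6 genes, and the progenitor sum is higher (36425 to 41530 against 24358 to 28494 normalised reads).

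Monocyte and macrophage markers, led by F13a1, overlapped between the groups in their sum (51939 to 66665 and 45985 to 61073). Of 12, 5 fell, 1 rose and 6 did not pass (median -0.43), and the most changed was Klf4 (-2.47, SE 0.42, limma adjusted p 0.00914). The 1 that rose was F13a1 itself, from 15358 ± 2563 to 25700 ± 2782 normalised reads (0.75, SE 0.13, limma adjusted p 0.00953). As 10 of the 12 had a negative change, the overlap of the sums does not describe the list as a whole. B-lymphoid markers, led by Cd79b, summed to 8367 to 36096 and 1331 to 3737. Of these 13, 9 fell, 0 rose and 4 did not pass, down to -5.97 for Ms4a1 (SE 0.80; limma adjusted p 0.00432); 4 passed without Runx1 KO replicate 3, and 3 without Runx1 KO replicate 2. Hvcn1 is also used by B cells, and the part of B-lymphoid cells in its level was not tested. The log2 change of Hvcn1 stayed between -1.64 and -1.76 whichever library was omitted.

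The remaining lists give the rest of the setting. Progenitor markers, led by Kit, rose in 9 of 12 and fell in 0, up to 2.53 for Slamf1 (SE 0.17; limma adjusted p 0.000776); 5 passed without Runx1 KO replicate 2. Eosinophil markers, led by Prg2, fell in 3 of 8 and rose in 0, with Ear2 changing most (-2.24, SE 0.28; limma adjusted p 0.00341); 1 passed without Runx1 KO replicate 2. Mast cell and basophil markers, led by Hdc, fell in 5 of 8 and rose in 1, down to -9.26 for Prss34 (SE 0.35, limma adjusted p 0.000111). The 1 that rose was Gata2, named after its value was seen and counted among the progenitor markers too. The sums of this list overlapped between the groups (14816 to 18681 and 13865 to 16719). Hdc, its highest gene, did not pass but had a positive change, from 6503 ± 1077 to 8021 ± 480 normalised reads (0.30 as log2 ratio of the means). Erythroid markers, led by Tfrc, fell in 5 of 9 and rose in 0, with Alas2 at -3.01 (SE 0.45, limma adjusted p 0.00615). The change was negative in 7 of the 9. Klf1 (0.74, SE 0.26, limma adjusted p 0.0816) and Epor (0.68, SE 0.26, limma adjusted p 0.107) had the other sign and did not pass. Both were named after their values were seen, and the groups did not overlap for Klf1. Megakaryocyte markers, led by Itga2b, rose in 3 of 6 and fell in 0; 1 passed without WT replicate 1, WT replicate 2 or Runx1 KO replicate 2. By limma, 0 of 9 dendritic markers, led by Irf8, and 0 of 8 T-lymphoid markers, led by Cd4, passed, with 3 and 2 at an unadjusted p under 0.05. On the recovered reads edgeR called 0 and 0 and DESeq2 called 2 and 1, and limma called 4 and 8 without Runx1 KO replicate 1, and likewise over replicates 2 and 3 alone.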

How the data were processed

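Stranded libraries of poly-A RNA from 6 samples were sequenced, per the labels' protocols. The submitters' processing notes name HISAT2, HTSeq 0.9.1, mm10 and GRCm38; the annotation, strand setting and normalization are not given in the sources used here. The deposited values are a signal: 100% of them were whole multiples, within 0.001, of the smallest positive value in their library, and the reciprocals of these steps equalled DESeq2 size factors, so reads could be recovered. Listed genes have at least 10 reads in total. Symbols, positions and exon lengths come from GENCODE M21, which matched 20077 identifiers, and promoters from RefSeq. Because values are not counts, limma 3.58.1 (lmFit, eBayes with trend) was fitted to log2(value + 1) with group as the only term, two-sided, Benjamini-Hochberg adjusted over 15410 genes kept by filterByExpr (minimum count 10, total 15), threshold 0.05; this scale understates changes of low genes. With 3 against 3 libraries an exact permutation test cannot pass the threshold and was not used. edgeR 4.0.16 and DESeq2 1.42.0 were run on recovered reads as alternatives, beside other pseudocounts (0.5, 5), filters, scalings, a replicate block and omitted libraries. The fit was tested on simulated data. The genes and lists were chosen with earlier results of these data known. Named were the 6 genes, the rest of the oxidase complex, up to 4 passing genes of each pathway list with the largest change (mean of at least 50), the most similar genes, and the highest and most changed marker of each list; others are marked where they appear. Some items of the lists are not reported here.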

Additional observations from a re-analysis of the deposited data

How the results depend on the processing

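The 6 genes stayed lower under the label Runx1 KO in each of the 17 fits. Left-out libraries gave log2 changes from -2.34 to -1.78 for Cybb, -0.96 to -0.78 for Cyba, -1.58 to -1.28 for Ncf1, -1.35 to -1.08 for Ncf4, -0.75 to -0.59 for Rac2 and -1.76 to -1.64 for Hvcn1. Over all genes they gave 1367 (without Runx1 KO replicate 2) to 3597 (without Runx1 KO replicate 1) calls against 3370, with 632 to 1634 higher and 735 to 1963 lower. Among the lists they gave 0 to 1 other oxidase genes, 8 to 12 receptor and kinase, 1 to 6 charge and pH, 4 to 7 NADPH supply, 4 to 8 superoxide and peroxide, and 2 to 5 transcription factor genes. Among markers they gave 5 to 10 progenitor, 3 to 6 early and 5 to 8 late neutrophil, 5 to 8 monocyte, 1 to 4 eosinophil, 4 to 7 mast cell, 0 to 4 dendritic, 3 to 12 B-lymphoid, 0 to 8 T-lymphoid, 4 to 7 erythroid and 1 to 3 megakaryocyte calls. Estimates near 0 turned in sign: Csf2rb ran from -0.15 to 0.0025, Noxo1 from -0.25 to 0.45, Tctn1 from -0.0037 to 0.16, Tfrc from -0.22 to 0.052 and the log2 change of Tst from -0.034 to 0.041. Scaling by library totals gave 0 other oxidase and 1 dendritic call, and changes of 0.020 for Csf2rb and 0.012 for Cybc1. DESeq2 gave 2 dendritic, 1 T-lymphoid and 6 megakaryocyte calls. Replicates 2 and 3 alone, a setting chosen after seeing the data, gave 4 dendritic and 8 T-lymphoid calls, and changes of -0.49 for Noxo1 and -0.044 for Tst. The causes were not tested.

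The replicate numbers paired the libraries in part at most. Deviations of same-numbered libraries correlated at 0.29, 0.13 and -0.01, with the value for replicates 1 the highest of all pairs. Runx1 KO replicate 3 correlated best with WT replicate 2. Adding a replicate block gave 3843 calls over all genes (3106 of them shared with the 3370), and 1 dendritic and 2 T-lymphoid markers. It also gave 11 of 12 late neutrophil, 12 of 13 B-lymphoid and 15 of 20 receptor and kinase genes, against 8, 9 and 11 without it. No list had fewer calls with the block. Itga2b lost its call there (adjusted p 0.0527).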
